A study of Mus musculus with 42 samples.

Results

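Glycolysis and the response to low oxygen were followed through the set of 42 genes that carry glucose into the cell, break it down to lactate, set the rate of that flow, sense oxygen or are known to be induced by hypoxia. Members were chosen by function and found on the array by RefSeq accession, with the brightest probe standing for each gene, and all 42 were present among the 20972 named genes measured. The cells were mouse embryonic stem cells (mESCs) of a single line, with GFP knocked in at Gsc, a gene of the primitive streak and mesendoderm, and RedStar at Hhex, a gene of the definitive endoderm, taken through a monolayer differentiation towards anterior definitive endoderm (ADE). Of the untreated groups, mESC and day 2 (d2) were not sorted, whereas the others were sorted on the reporters into d3 G- and G+, d4 G- and G+, d5 G-, Glow and Ghigh, and d6 G+H- and G+H+, where G stands for the Gsc reporter and H for the Hhex reporter. In the remaining 3 groups, all taken at d6 with no sort named in the labels, cultures received DMSO throughout (Control), DMSO as mESCs and 2.5 μM EPZ6438 during differentiation (ADE_EPZ), or EPZ6438 as mESCs and DMSO during differentiation (ES_EPZ). EPZ6438 inhibits EZH2, the enzyme of Polycomb repressive complex PRC2 that methylates histone H3 on lysine 27. Each of the 14 groups had 3 arrays, and a number such as mESC replicate 1 names an array.

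In glycolysis, glucose enters through transporters such as Slc2a1, is phosphorylated and split by the upper enzymes, and is turned by the lower enzymes into pyruvate, which lactate dehydrogenase reduces to lactate. Pyruvate dehydrogenase kinases hold pyruvate back from the mitochondria. When oxygen is scarce, prolyl hydroxylases of the Egln family stop marking the HIF alpha proteins for destruction, and HIF binds short elements near many of these genes and raises their transcription. Mouse ES cells are known for strong use of glycolysis along with respiration.

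Values are log2 signal as deposited, after background correction and quantile normalisation over all arrays, and levels were compared between groups only within a probe. The scanner software placed between 24459 and 40398 probes well above background on an array, with none saturated. Of the members, 41 were above background on all 42 arrays, while Car9 was above it on 21. The mean log2 level of 7 pluripotency markers lay between 13.09 and 13.87 in mESCs and between 6.68 and 6.94 in d6 G+H+, where 5 endoderm markers lay between 12.89 and 13.09. The 3 epiblast markers Fgf5, Otx2 and Dnmt3b did not peak in the early populations: their mean lay between 10.85 and 11.34 in mESCs, 12.33 and 12.59 at d2, and 15.35 and 15.51 in d6 G+H+. Replicate 3 of d5 Glow and d5 Ghigh stood apart from its replicates, with the endoderm gene Cer1 at 12.55 and 14.91 against 7.26 and 8.71, and 11.47 and 12.30. In d4 G+, replicate 1 stood apart with Pou5f1 at 10.17 against 12.46 and 11.99. In d3 G-, replicate 1 was far below its replicates for the members Gpi1, at 13.31 against 15.78 and 15.64, Ankrd37, at 6.06 against 9.28 and 8.83, and Aldoc, at 9.59 against 11.29 and 11.40. The 2 members called between d3 G+ and G- kept their calls without any single array. Replicate 3 of every untreated group was scanned in a separate batch from replicates 1 and 2, and the EPZ6438 series in a further one. In sorted and unsorted bulk cells alike, fewer cells of a type and less RNA per cell cannot be told apart.

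The promoters of several members are shown because the HIF element has a short core. RefSeq promoter windows of build GRCm38.p6, from 250 bases before to 50 bases after a start site, were found for 39 of the 42 members. Ndufa4l2, Slc2a3 and Ndrg1 were not matched. ACGTG or GCGTG was present on either strand in 43 of 53 member windows (81.1%) and in 14380 of 32851 windows of all genes (43.8%). For ACGTG alone these shares were 56.6% and 19.6%. Member windows also held more G and C, with a median of 62.3% against 52.7%. The 250 bases before the start site are printed below, 5′ to 3′ on the strand of the gene, for 5 members that moved in different ways, with matches in capitals. Bnip3, which promotes the removal of mitochondria, and Pgk1, the phosphoglycerate kinase of glycolysis, represent windows with ACGTG, and in Bnip3 the letters CACGTG are a match on both strands. Pdk1 and Pfkp held GCGTG only in the windows shown, and Pgam2 held no match. A second Pdk1 window, not shown, held no match either. The kind of match was not compared with the direction of change over all members. In these examples Bnip3 and Pgk1 lost signal in differentiation, as did Pdk1 and Pfkp. Among members that gained signal, Pgam2 held no match and Pfkfb4 held GCGTG. Vegfa had 2 windows, of which 1 held both cores and the other held no match. A match describes the letters of the window and does not show binding.
Bnip3, chr7:138909507-138909756, minus strand: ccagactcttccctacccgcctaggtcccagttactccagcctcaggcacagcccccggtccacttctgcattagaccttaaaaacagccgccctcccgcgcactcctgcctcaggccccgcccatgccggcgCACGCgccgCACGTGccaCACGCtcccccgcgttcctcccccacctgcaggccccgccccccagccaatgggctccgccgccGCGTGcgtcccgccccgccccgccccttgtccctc
Pgk1, chrX:106186850-106187099, plus strand: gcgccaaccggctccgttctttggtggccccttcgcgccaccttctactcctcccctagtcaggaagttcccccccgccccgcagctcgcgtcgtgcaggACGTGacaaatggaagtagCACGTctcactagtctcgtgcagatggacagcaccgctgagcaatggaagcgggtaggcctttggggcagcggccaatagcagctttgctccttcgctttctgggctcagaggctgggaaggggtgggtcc
Pdk1, chr2:71872974-71873223, plus strand: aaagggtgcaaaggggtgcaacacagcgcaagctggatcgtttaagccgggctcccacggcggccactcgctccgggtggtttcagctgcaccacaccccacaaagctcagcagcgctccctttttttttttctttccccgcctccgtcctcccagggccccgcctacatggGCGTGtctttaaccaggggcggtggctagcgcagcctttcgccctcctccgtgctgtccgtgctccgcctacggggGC
Pfkp, chr13:6648772-6649021, minus strand: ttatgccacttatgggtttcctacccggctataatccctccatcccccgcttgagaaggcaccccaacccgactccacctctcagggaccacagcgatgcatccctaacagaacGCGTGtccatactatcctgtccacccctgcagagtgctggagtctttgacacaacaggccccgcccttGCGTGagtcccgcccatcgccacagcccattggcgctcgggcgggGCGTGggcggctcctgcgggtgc
Pgam2, chr11:5803797-5804046, minus strand: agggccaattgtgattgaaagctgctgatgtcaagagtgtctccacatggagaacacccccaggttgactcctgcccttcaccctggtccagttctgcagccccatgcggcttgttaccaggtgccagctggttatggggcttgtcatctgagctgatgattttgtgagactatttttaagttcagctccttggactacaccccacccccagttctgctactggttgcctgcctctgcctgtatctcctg

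Across the 14 groups the members covered a wider range than a typical gene. The range of the group means had a median of 1.45 over the members and 0.91 over all genes, beside a median SD within groups of 0.23 and 0.20. Vegfa, which encodes a growth factor for blood vessels, had the widest range of the members at 4.16, from 8.19 in d3 G- to 12.35 in ADE_EPZ. Pfkp, the platelet form of phosphofructokinase, ranged over 4.10, Pdk1, a pyruvate dehydrogenase kinase, over 3.48, Ndufa4l2, a mitochondrial protein induced by HIF, over 3.41, and Pgam2, the muscle form of phosphoglycerate mutase, over 3.31. At the other end stood Gapdh with a range of 0.42, Slc16a1, a lactate transporter, with 0.51, Ldha, the lactate dehydrogenase subunit of glycolytic cells, with 0.57, Hif1a, the oxygen-regulated HIF subunit, with 0.59, and Aldoa, the main aldolase, with 0.65. Of the upper and lower enzymes of glycolysis, Gapdh, Ldha, Aldoa, Pkm and Pgk1 lay under the median range of all genes and the others above it. These ranges include the EPZ6438 series, scanned in its own batch, which held the lowest mean of Gapdh, Aldoa, Pkm, Eno1 and Pgam1, among others. Eno1 had a mean of 15.49 in ADE_EPZ and 16.16 in d6 G+H+, its lowest untreated group. For Pgam1 these were 15.02 in Control and 15.51 in d6 G+H+. In such ranges scan batch and culture cannot be told apart. Among members called in no comparison P4ha1 had the widest range, 3.07, from 5.87 at d2 to 8.93 in ADE_EPZ, and Hk1, Eno2, Ankrd37, Pdk3, Ddit4, Pfkfb3 and Ldhb followed in that order, from 2.57 for Hk1 and 2.43 for Eno2 to 1.54 for Pfkfb3, with Ldhb just below it. For Egln3, Slc16a3, Eno3, Egln1, Pfkl, Eno1, P4ha2, Car9, Hk2, Pgam1, Gpi1 and Pfkm the range lay between 1.05 and 1.46, and for Tpi1, Pgk1, Higd1a, Ero1a and Pkm between 0.85 and 0.97. A member was called in a comparison at a limma adjusted p of at most 0.01 and a log2 difference of at least 1.5 in either direction, as in the methods of the study. Under this rule 12 members were called in at least 1 of 14 comparisons and 30 in none, and 27 met the p threshold alone in at least 1.

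**Figure D1:**
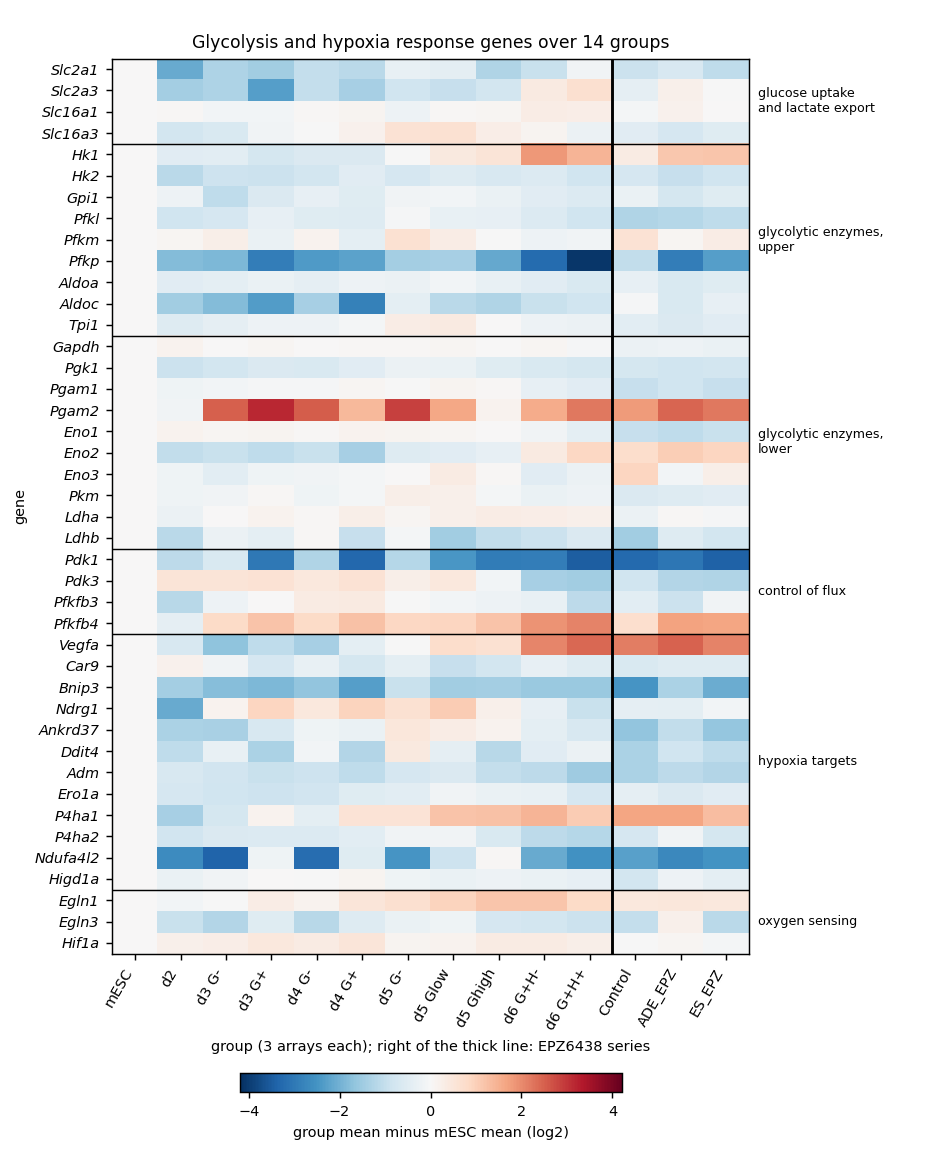
Mean log2 signal of each member (rows, by role) in each of the 14 groups (columns, 3 arrays each) minus its mean in mESC, from blue (lower) to red (higher). Pfkp and Pdk1 were below mESC in every other group, Vegfa was highest in the d6 groups, and Ndufa4l2 alternated between sorted populations.

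The first question was what happened as mESCs left the pluripotent state. At d2, before any sort, members moved downwards: 35 of 42 had a negative difference from mESC, the median difference was -0.69 against 0.02 over all genes, and 28 had an unadjusted p under 0.05. Called lower were 4 members (9.52% of the set) and higher 0, beside 1.37% of all genes called lower and 1.73% called in either direction. These were Ndufa4l2, Ndrg1, a stress-induced protein of the hypoxia response, Slc2a1, the main glucose transporter of embryonic cells, and Pfkp. The p threshold alone was met by 9, all lower, where 3.32% of all genes met it with a lower value and 5.68% in either direction; the other 5 were Slc2a3, a high-affinity glucose transporter, Hk2, an inducible hexokinase, Pgk1, Pfkfb3, which makes the activator of phosphofructokinase, and P4ha1, a collagen prolyl hydroxylase. By role, 2 of 4 transport genes, 2 of 9 upper enzymes, 1 of 10 lower enzymes, 1 of 4 flux regulators and 3 of 12 hypoxia targets met it, and 0 of 3 oxygen sensing genes did.

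Slc2a1 read 14.82, 15.32 and 14.55 in mESC and 12.67, 12.94 and 12.71 at d2. All d2 arrays were below all mESC arrays, a difference of -2.13 (SE 0.35, adjusted p = 8.89e-05). Ndrg1 read 9.84, 10.05 and 10.29 in mESC and 8.17, 7.82 and 7.80 at d2, a difference of -2.13 (SE 0.32, adjusted p = 2.38e-05). The d2 arrays were the lowest of all untreated groups for Ndrg1, which by d3 was back at 10.17, 10.36 and 10.06 in G- and at 10.67, 11.22 and 11.05 in G+. Ndufa4l2 read 10.11, 9.32 and 10.34 in mESC and 7.17, 7.55 and 7.16 at d2. Here too the groups did not overlap, and the level was 6.18-fold lower at d2 (log2 difference -2.63, SE 0.33, adjusted p = 1.25e-06). Slc2a3 read 15.05, 15.71 and 14.94 against 13.92, 13.67 and 13.79, a difference of -1.44 (SE 0.32, adjusted p = 0.00385) that fell short of the fold minimum. Pfkp read 10.85, 9.99 and 11.15 in mESC and 8.69, 9.01 and 8.80 at d2, a difference of -1.83 (SE 0.31, adjusted p = 0.000121), where a second, dimmer Pfkp probe gave -0.21. Neither Slc2a3 nor Pfkp overlapped between the groups. Bnip3 read 14.13, 13.76 and 13.88 in mESC and 12.15, 13.00 and 12.35 at d2 with no overlap, although its difference did not meet the p threshold. Marker genes moved in the same interval: 4 of 7 pluripotency markers (Zfp42, Esrrb, Klf2 and Tdh) were called lower and the streak genes T and Eomes were called higher. Their part in the member changes was not tested.

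Pgk1 and Gapdh, both in use as reference genes in the field, differed in this step. Pgk1 read 15.64, 15.83 and 15.80 in mESC and 14.77, 15.02 and 14.76 at d2. Every d2 array was below every mESC array, 1.88-fold lower on average (log2 difference -0.91, SE 0.20, adjusted p = 0.00279), and Pgk1 was again lower in d6 G+H+, at 15.07, 14.91 and 15.03 (difference -0.75, SE 0.20, adjusted p = 0.00354). Gapdh, the dehydrogenase of glycolysis, read 17.12, 16.89 and 17.10 in mESC, 17.23, 17.25 and 17.03 at d2, and 17.04, 17.07 and 16.90 in d6 G+H+. These groups overlapped, and the difference from mESC was 0.13 at d2 (SE 0.10, adjusted p = 0.641) and -0.04 in d6 G+H+ (SE 0.10, adjusted p = 0.92). Under other settings of the processing the Gapdh difference in d6 G+H+ ranged from -0.44 to 0.049, with a lowest limma adjusted p of 0.0049.

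**Figure D2:**
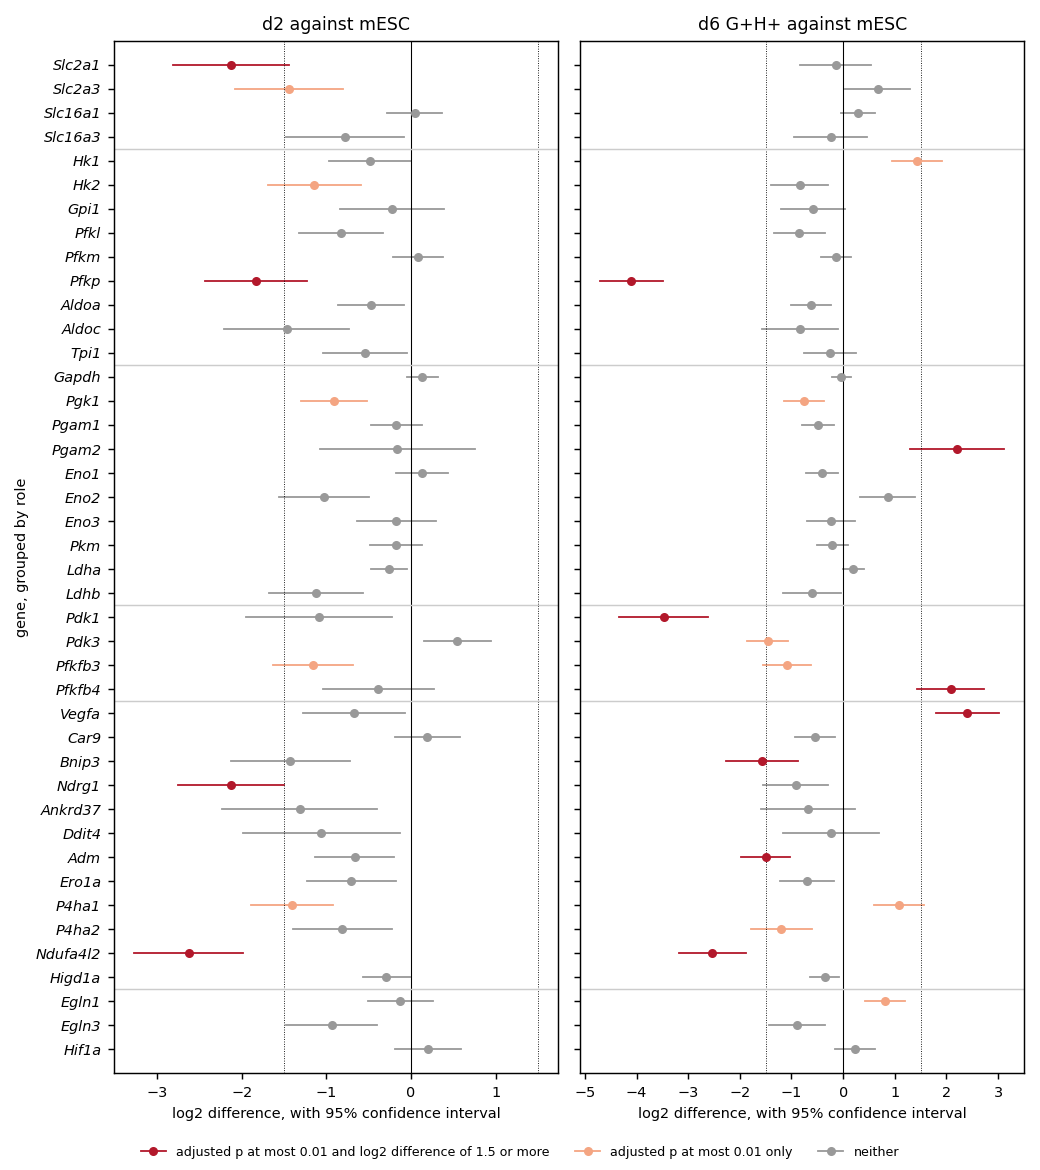
Log2 difference of each member (rows, grouped by role) from mESC at d2 (left) and in d6 G+H+ (right), with 95% confidence intervals from the limma fit; dotted lines mark 1.5 in either direction. At d2 the 9 members past the p threshold lie left of 0, while in d6 G+H+ 6 of 15 lie to the right.

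Cells that had switched on Gsc were then compared with cells of the same day that had not. Ndufa4l2 was higher in the G+ population at every day tested, and Pdk1 lower at d3 and d4. Ndufa4l2 and Pdk1 were the 2 members called at d3, or 4.76% of the set beside 1.8% of all genes, and both were called again at d4, beside 2.28%. At d5 Ghigh against G- Ndufa4l2 was called higher and Pgam2 lower, beside 2.58%. The median difference over the 42 members was 0.10 at d3, 0.10 at d4 and -0.24 at d5, and no further member met the p threshold at d3 or d4.

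Ndufa4l2 read 7.18, 6.33 and 6.14 in d3 G- and 10.02, 9.97 and 9.24 in d3 G+. At d4 it read 6.88, 7.04 and 6.23 in G- and 9.89, 9.18 and 9.21 in G+. At d5 it read 7.39, 8.06 and 6.89 in G-, 9.03, 8.98 and 9.13 in Glow, and 10.47, 10.26 and 9.15 in Ghigh. On each day every G+ array lay above every G- array, and the levels of d3 G+, d4 G+ and d5 Ghigh overlapped those of mESC, whereas all d2 and G- arrays lay below mESC. The difference between G+ and G- was 3.19 at d3 (SE 0.33, adjusted p = 4.37e-08), 2.71 at d4 (SE 0.33, adjusted p = 1.30e-06) and 2.52 at d5 (SE 0.33, adjusted p = 3.15e-06). It was 3.24 at d3 within the scan batch of replicates 1 and 2 and 3.10 within that of replicate 3. At d5 it was 2.92 without Ghigh replicate 3. Whether it differed between days was tested and the change from d3 was -0.48 at d4 (95% interval -1.40 to 0.43) and -0.68 at d5 (-1.59 to 0.24). Ghigh and Glow differed by 0.92 (SE 0.33, adjusted p = 0.302), which did not pass. Between d3 G+ and G- cells 5 of 7 pluripotency markers were called lower and 4 of 5 streak markers higher, with the mean of the former between 11.36 and 12.01 in G- and 9.18 and 9.49 in G+, and their part in the Ndufa4l2 and Pdk1 differences was not tested.

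Pdk1 ran the other way. It read 10.86, 11.05 and 11.05 in d3 G- and 8.71, 8.18 and 8.96 in d3 G+, a difference of -2.37 (SE 0.44, adjusted p = 0.000546). At d4 it read 9.78, 10.42 and 10.89 in G- and 7.45, 8.62 and 8.91 in G+, a difference of -2.04 (SE 0.44, adjusted p = 0.00297). The populations did not overlap on either day, but the d4 call was lost when G+ replicate 1, the array that stood apart, was left out (difference -1.60, adjusted p = 0.0632), and also without G- replicate 2 or replicate 3. At d5 Pdk1 read 9.79, 10.28 and 11.20 in G- and 8.46, 8.40 and 9.19 in Ghigh, again without overlap but not called, and 8.96, 8.68 and 9.90 in Glow, which overlapped both. With the replicate number as a block, 3 members instead of 2 were called at d5, with Pdk1 added.

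Pgam2 was near its mESC level at d2 and above it at d3. It read 7.01, 6.80 and 7.22 in mESC and 7.04, 6.64 and 6.87 at d2, but 10.71, 8.76 and 9.07 in d3 G- and 11.45, 9.45 and 9.58 in d3 G+. The d3 populations overlapped with each other and neither reached down to mESC, and G+ was above G- in each pair of the same number (0.65, SE 0.47, adjusted p = 0.728 without the replicate block, which made no call of it either). By d5 G- read 9.41, 9.99 and 10.20, Glow 8.29, 8.97 and 8.66, and Ghigh 7.47, 7.02 and 7.02, so that the arrays fell in order of the Gsc reporter without overlap. Ghigh against G- gave -2.70 (SE 0.47, adjusted p = 0.000193), whereas Ghigh against Glow gave -1.47 (SE 0.47, adjusted p = 0.209). The difference between G+ and G- changed by -3.34 from d3 to d5 (SE 0.66, adjusted p = 0.00561), the only member called in this test, beside 0.577% of all genes. That call was lost when any of 7 of the 12 arrays was left out, among them Ghigh replicate 3 (-3.27, adjusted p = 0.019) and d3 G+ replicate 1, and when only these 12 arrays entered the fit (adjusted p = 0.17). In the same d5 comparison all 7 pluripotency markers were called lower in Ghigh and 4 of 5 endoderm markers higher, and their part in the Pgam2 difference was not tested.

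**Figure D3:**
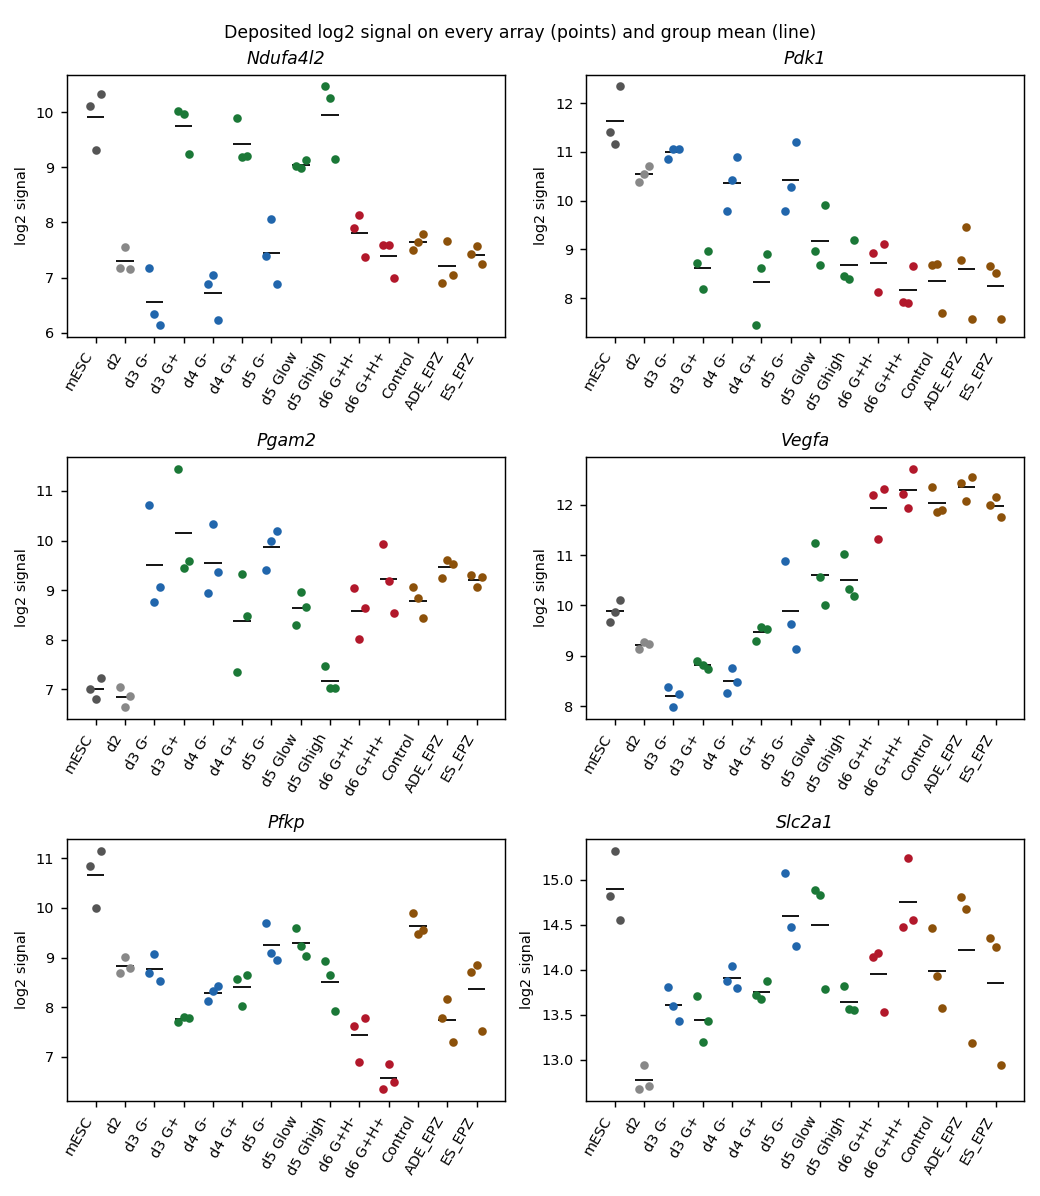
Deposited log2 signal of 6 members on each of the 42 arrays (points) with the mean of the 3 arrays of a group (line); blue marks G- populations, green G+, Glow and Ghigh, red d6, grey mESC and d2, and brown the EPZ6438 series. Ndufa4l2 and Pdk1 separate G- from G+ cells in opposite directions at d3 and d4, and Vegfa is highest at d6.

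In d3 G+ against mESC, 1 member was called higher and 5 lower (14.3% of the set), beside 2.89% of all genes called higher, 3.7% called lower and 6.59% called in all. Pgam2 was the higher one (3.15, SE 0.47, adjusted p = 3.39e-06), and Pdk1, Pfkp, Aldoc, Slc2a3 and Bnip3 the lower ones. Of the 4 members called lower at d2, Pfkp was called lower here too (-2.90, with -0.22 by its second probe), while Ndufa4l2, Ndrg1 and Slc2a1 were not. Aldoc, the brain aldolase, read 12.77, 12.46 and 12.52 in mESC and 10.49, 9.77 and 10.48 in d3 G+, a difference of -2.34 (SE 0.38, adjusted p = 1.40e-05). Slc2a3 read 13.84, 12.59 and 12.36 in d3 G+, its lowest group, a difference of -2.30 (SE 0.32, adjusted p = 1.48e-06). Bnip3 read 12.18, 11.95 and 12.02, a difference of -1.88 (SE 0.36, adjusted p = 0.000164). None of these 3 genes overlapped with its mESC arrays.

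At d5 fewer members were called against mESC than at d2 or in d3 G+. In d5 G- 1 was called higher, Pgam2, and 1 lower, Ndufa4l2, beside 4.32% of all genes, and when each array was scaled to its 75th percentile instead the split was 1 higher and 2 lower, with Pfkp added. In d5 Ghigh 0 were called higher and 2 lower, Pdk1 (-2.95, SE 0.44, adjusted p = 3.01e-06) and Pfkp (-2.15, SE 0.31, adjusted p = 1.38e-06), beside 8.19%. The second Pfkp probe gave -0.01 (adjusted p = 0.995). At 4.76% of the set each, these counts were close to or under the background. Without Ghigh replicate 3, 4 members were called. At the p threshold alone 10 members of d5 Ghigh passed, 3 higher and 7 lower, against 22.1% of all genes. Slc2a1, Pfkp, Ldhb, Pdk1, Car9, Bnip3 and Adm were the lower ones, and the higher ones were Pfkfb4, P4ha1, 2.33-fold higher, and Egln1, the main oxygen-sensing prolyl hydroxylase, 2.24-fold higher. Ghigh against Glow gave 0 calls by limma, where 7 members had an unadjusted p under 0.05 and 0.267% of all genes were called.

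The endpoint of the untreated series, d6 G+H+, had more members below mESC than above it: 31 of 42 differences were negative, the median was -0.45 against -0.002 over all genes, and 29 had an unadjusted p under 0.05. Of the members 3 were called higher than in mESC and 5 lower (19.0% of the set), beside 5.79% of all genes called higher, 5.33% called lower and 11.1% called in all, and 15 met the p threshold alone, 6 higher and 9 lower, where 30.3% of all genes did. The higher ones were Vegfa, Pgam2 and Pfkfb4, a phosphofructokinase-2 isoform. The lower ones were Pfkp, Pdk1, Ndufa4l2, Bnip3 and Adm, the precursor of adrenomedullin. Among the flux regulators the kinases moved apart: Pdk1, Pdk3 and Pfkfb3 were past the p threshold on the lower side and Pfkfb4 on the higher side. Hk1, the constitutive hexokinase, was 2.70-fold higher (log2 difference 1.43, SE 0.25, adjusted p = 2.28e-05) and stayed just under the fold minimum, while Hk2 did not meet the p threshold. In the same comparison all 7 pluripotency markers were called lower and all 5 endoderm and all 3 epiblast markers higher.

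Vegfa read 9.67, 9.87 and 10.11 in mESC, 11.03, 10.32 and 10.18 in d5 Ghigh, 12.19, 11.33 and 12.31 in the G+H- cells of d6, and 12.22, 11.93 and 12.72 in d6 G+H+. All d6 arrays lay above all earlier ones, and Vegfa in d6 G+H+ was 5.30-fold above mESC (log2 difference 2.41, SE 0.31, adjusted p = 1.28e-07) and 3.42-fold above d5 Ghigh (1.78, SE 0.31, adjusted p = 8.77e-05). A second Vegfa probe gave 2.20 and 1.65. The call against d5 Ghigh was lost under 2 of 11 other settings, where the lowest difference was 1.39. These were a fit of only the compared arrays and one of only replicates 1 and 2. Pfkfb4 read 7.08, 7.83 and 7.01 in mESC and 10.14, 9.54 and 8.47 in d6 G+H+, a difference of 2.08 (SE 0.33, adjusted p = 6.47e-06). The 2 groups did not overlap, although replicate 3 was the lowest of the d6 arrays in both d6 populations. A second Pfkfb4 probe, above background on 1 of 42 arrays, showed -0.01.

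Pfkp read 7.70, 7.81 and 7.78 in d3 G+, 8.94, 8.66 and 7.93 in d5 Ghigh, 7.62, 6.90 and 7.79 in the G+H- cells of d6, and 6.35, 6.86 and 6.49 in d6 G+H+. The d6 G+H+ arrays were the lowest of all 42, 17.1-fold below mESC (log2 difference -4.10, SE 0.31, adjusted p = 1.03e-12). The second Pfkp probe, also above background on all arrays, gave -0.47 for the same comparison (adjusted p = 0.487), so the 2 probes disagreed on the size of the change. Pdk1 read 11.41, 11.15 and 12.34 in mESC and 7.92, 7.89 and 8.66 in d6 G+H+, a difference of -3.48 (SE 0.44, adjusted p = 9.76e-08) with no overlap. Bnip3 read 12.48, 12.57 and 12.01 in d6 G+H+, a difference of -1.57 (SE 0.36, adjusted p = 0.00083). Adm read 6.74, 6.94 and 7.60 in mESC and 5.64, 5.82 and 5.32 in d6 G+H+, 2.83-fold lower and just past the fold minimum (SE 0.24, adjusted p = 4.92e-06). The Adm call was also lost under 5 of 11 other settings of the processing, among them the slide as a block (-1.46 as a random and -1.42 as a fixed block) and a normexp offset of 50. The calls of Bnip3 and Adm each rested on single arrays: Bnip3 was lost without mESC replicate 1 or d6 G+H+ replicate 3, and Adm without mESC replicate 3 or d6 G+H+ replicate 3, with differences as small as -1.40 and -1.25.

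The last step, from d5 Ghigh to d6 G+H+, brought 2 members up and 2 down, beside 4.16% of all genes called. Pgam2 rose by 2.05 (SE 0.47, adjusted p = 0.00205), reading 9.92, 9.19 and 8.54 in d6 G+H+, and this call was lost without d5 Ghigh replicate 2 or d6 G+H+ replicate 1, where the lowest difference was 1.70. Vegfa rose as given above. Ndufa4l2 fell from the d5 Ghigh level to 7.59, 7.59 and 6.99, a difference of -2.57 (SE 0.33, adjusted p = 9.01e-07), and Pfkp differed by -1.95 (SE 0.31, adjusted p = 2.30e-05), with -0.46 by its second probe. Slc2a3 read 15.80, 15.78 and 16.12 in d6 G+H+ against 14.02, 14.24 and 15.11 in d5 Ghigh, without overlap (1.44, SE 0.32, adjusted p = 0.00184), and its d6 G+H+ arrays also lay above all mESC arrays. Without d5 Ghigh replicate 3, 6 members were called. In the same step 3 of 4 mesoderm markers and 3 of 5 streak markers were called lower, and their part was not tested. Between d6 cells sorted by the Hhex reporter, G+H+ against G+H- gave 0 calls by limma, with 3 members at an unadjusted p under 0.05, beside 0% of all genes called. Pfkp was lower in G+H+ without overlap (-0.87, SE 0.31, adjusted p = 0.764). Slc2a1 was above G+H- without overlap, at 14.47, 15.24 and 14.55 against 14.14, 14.19 and 13.53 (0.80, SE 0.35, adjusted p = 1), and Ldhb also had every G+H+ array above every G+H- array (0.28, SE 0.28, adjusted p = 1). None of the 3 differences passed the test. The share of all genes that separated without overlap was not counted, so no difference between the populations is read from them.

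In the EPZ6438 series the question was whether blocking EZH2 during or before differentiation altered these genes at d6. Against Control, ADE_EPZ cultures had 1 called member, Pfkp, which was lower, beside 2.78% of all genes called, and 4 members met the p threshold alone, where 11% of all genes did. Of these, Pfkp and Eno3, the muscle enolase, were lower and Egln3, a prolyl hydroxylase that HIF induces, and Higd1a, a mitochondrial protein of the hypoxia response, were higher. ES_EPZ cultures had 0 called members by limma, with 7 at an unadjusted p under 0.05, beside 0.429% of all genes.

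Pfkp read 9.90, 9.47 and 9.55 in Control, 7.78, 8.17 and 7.30 in ADE_EPZ, and 8.72, 8.85 and 7.53 in ES_EPZ. Both treated groups lay below Control on every array. ADE_EPZ differed by -1.89 (SE 0.31, adjusted p = 7.09e-05), with values of -2.17, -1.77 and -1.73 within the 3 slides, while ES_EPZ differed by -1.28 (SE 0.31, adjusted p = 0.0226), which did not pass. The second Pfkp probe gave -0.98 for ADE_EPZ (adjusted p = 0.0902). Eno3 read 11.50, 11.19 and 11.44 in Control and 10.51, 10.51 and 10.04 in ADE_EPZ, a difference of -1.02 (SE 0.24, adjusted p = 0.00345) with no overlap. Egln3 read 8.94, 8.67 and 8.16 in Control, 9.96, 10.10 and 9.35 in ADE_EPZ, and 8.68, 8.70 and 7.99 in ES_EPZ. The ADE_EPZ arrays were above all others for Egln3, by 1.21 against Control (SE 0.27, adjusted p = 0.00256) and by 1.35 against ES_EPZ (SE 0.27, adjusted p = 0.00995), and Egln3 was the only member past the p threshold between the treated groups, beside 0.439% of all genes; 0 members reached the fold minimum there, with 3 at an unadjusted p under 0.05. Vegfa read 12.35, 11.86 and 11.90 in Control and 12.43, 12.08 and 12.56 in ADE_EPZ, overlapping. Marker levels moved with the treatment: the mean of 5 endoderm markers lay between 11.21 and 11.75 in Control, 12.41 and 12.85 in ADE_EPZ, and 12.02 and 12.49 in ES_EPZ, and that of 4 mesoderm markers between 9.56 and 9.71, 7.99 and 8.65, and 8.03 and 8.91. The mean of 7 pluripotency markers lay between 7.34 and 7.76 in Control and was higher in ADE_EPZ, between 8.28 and 8.63, where Zfp42 was called higher. Within that list Nanog overlapped between these groups and Sox2 was below Control on every ADE_EPZ array. The mean of 5 streak markers lay between 10.16 and 10.18 in Control and 9.08 and 9.27 in ADE_EPZ. Of these, Gsc went the other way, at 11.64, 12.22 and 12.06 in Control and 12.66, 12.81 and 13.43 in ADE_EPZ. The part of all these markers in the Pfkp, Eno3 and Egln3 differences was not tested.

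**Figure D4:**
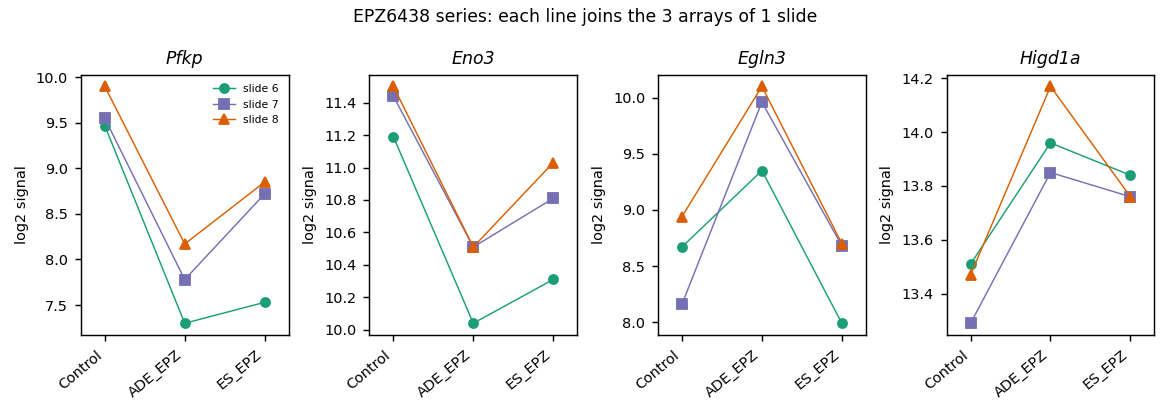
Log2 signal of 4 members in the EPZ6438 series, with each line joining the 3 arrays of a slide. On each slide Pfkp and Eno3 were lower and Egln3 and Higd1a higher in ADE_EPZ than in Control.

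Related genes outside the set gave a similar picture of few calls. Among other hypoxia targets, Bhlhe40, a transcriptional repressor (-2.67, SE 0.31), and Loxl2, a collagen cross-linking enzyme (-2.15, SE 0.34), were called lower at d2. Of 29 genes of pyruvate dehydrogenase and the citric acid cycle, 2 were called lower at d2, Idh2, a mitochondrial isocitrate dehydrogenase (-2.23, SE 0.19), and Pdk4, another pyruvate dehydrogenase kinase (-2.11, SE 0.28). In d6 G+H+ against mESC Bhlhe40 was called lower again (-4.37, SE 0.31). Of 12 components of the HIF pathway, 7 genes of the pentose phosphate pathway and 8 genes of the integrated stress response, 0 were called in these comparisons or in ADE_EPZ against Control. Of 9 transcriptional drivers of glycolysis, Myc was called lower in ADE_EPZ (-1.51, SE 0.19, adjusted p = 3.00e-06), and of 13 genes of gluconeogenesis and glycogen, G6pc3, a glucose phosphatase, was called higher in d6 G+H+.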

How the data were processed

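RNA of 14 groups was measured on 42 Agilent one-colour arrays. The authors deposited scanner files with intensity per spot and a table of log2 intensity, which per their methods had been corrected in limma by normexp (offset 10) and then quantile normalised over all arrays. The deposited log2 values were used as the main values, after spots of a probe were averaged (55681 probes). Recomputing them from the scanner intensity gave values whose correlation with them was 0.999979 or more on every array. Probes were named through RefSeq accessions, of which 21865 of 23171 had a symbol in the RefSeq table (GRCm38.p6, used for names and promoters). The brightest probe over all arrays stood for a gene.

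Group means were fitted to all arrays together with limma 3.58.1 in R 4.3.3, with Benjamini-Hochberg adjustment across every probe. It was tested on simulated data first. Calls required an adjusted p no higher than 0.01 and an absolute log2 difference of 1.5 or more. All p values given are limma p values. Comparisons with mESC share its 3 arrays, and those with Control share its arrays. The study describes its G+ and G- populations of d3 to d5 and its EPZ6438 arrays as independent experiments. A further legend of the study gives expression data as means of 3 independent experiments without naming the groups. As the other groups are not named as separate cultures, their p values measure the spread between those samples, which may be technical. The number of arrays limits the precision. Replicate numbers deviated together (every correlation over 0.1) in 6 comparisons, among them G+ against G- at d3 (lowest 0.253) and d4 (lowest 0.206). The p values of the main fit did not use this pairing, and a replicate block was run as an alternative. Members and lists were chosen with earlier results of these data known. Values on every array are given for members called in any comparison, plus Pgk1 and Gapdh; Hk1, Eno3, Egln3 and other members were described by counts or after their values were seen. Alternatives covered background correction, scaling, dim probes, probe choice, arrays in the fit, slide, replicate block and single arrays left out.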

Additional observations from a re-analysis of the deposited data

Results flagged for a closer look

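The difference of Pgam2 between G+ and G- cells was not the same at d3 and d5, by a test of that change itself (-3.34 on the log2 scale, SE 0.66, limma adjusted p = 0.00561), beside 0.577% of all genes called in this test. G+ and G- arrays overlapped at d3, with G+ higher in all pairs, and at d5 Ghigh lay below G- in all pairs. The adjusted p rose above the threshold when any of 7 of the 12 arrays was left out, with changes between -3.94 and -2.70 and a highest adjusted p of 0.035. Groups of 3 arrays were too small to test for an array far from the others.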

How the results depend on the processing

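All 33 calls kept their direction under every alternative run, and within each scan batch or slide. Without a fold minimum the count of members was 9 at d2, 11 in d3 G+, 4 in d5 G-, 15 in d6 G+H+ and 10 in d5 Ghigh against mESC, 7 in d6 G+H+ against d5 Ghigh, 4 in ADE_EPZ against Control and 1 in ADE_EPZ against ES_EPZ. With only the compared arrays in the fit it was 1 at d4, 1 at d5 against G-, 2 in d6 G+H+ against d5 Ghigh and 0 for the change from d3 to d5. With the mean of all probes of a gene it was 0 in ADE_EPZ against Control and 1 in d5 Ghigh against mESC, both for Pfkp, and Pfkp at d2 and in d6 G+H+ against d5 Ghigh and Pfkfb4 in d6 G+H+ against mESC were lost too. With only replicates 1 and 2, chosen after seeing the data, it was 1 at d4, 1 at d5 against G- and 0 for the change from d3 to d5, which was also 0 under scaling to the 75th percentile. That scaling moved the median of all genes to 0.14 at d3 and to -0.10 in d6 G+H+ against d5 Ghigh. With a normexp offset of 50 the split at d5 Ghigh against G- was 1 higher and 2 lower. Gapdh, never called, changed sign: -0.006 at d2 with the mean of its probes, and in d6 G+H+ 0.049 with replicates 1 and 2 and -0.111 to 0.016 when each array in turn was dropped. At the other end, its d6 G+H+ difference from mESC went down to -0.44 over the alternatives, with a lowest limma adjusted p of 0.0049. The replicate block took away no call and added Pdk1 at d5 Ghigh against G- (3 members). With the slide as a random or fixed block Adm was lost and Hk1 (with the fixed block also Pdk3) gained in d6 G+H+ against mESC, and Aldoc at d2 and d4, Pdk1 at d5 against G- and Slc2a3 in d6 G+H+ against d5 Ghigh were gained. The causes of these changes were not tested, beyond fewer arrays where some were left out.

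With single arrays left out, the count ranged from 6 to 9 for d6 G+H+, 2 to 4 for d5 Ghigh, 4 to 5 at d2, 6 to 7 in d3 G+ and 2 to 3 in d5 G- against mESC, from 1 to 2 at d4, 2 to 3 at d5 against G-, 3 to 6 in d6 G+H+ against d5 Ghigh, 1 to 2 in ADE_EPZ and 0 to 1 in ES_EPZ against Control, 0 to 1 between the treated groups and 0 to 1 for the change from d3 to d5. A probe near background gives too small a change, which touches Car9, above background on 21 of 42 arrays.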
